A study of Mus musculus with 6 samples.

Results

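Adenine nucleotide and phosphocreatine enzymes were followed in muscle injected with a Yap-shRNA vector, as 10 genes out of the 13226 in the deposited count table. They were chosen by the reaction they catalyse and not by a threshold on measured values: the AMP deaminases Ampd1, Ampd2 and Ampd3, the adenylosuccinate synthetases Adss and Adssl1, the adenylosuccinate lyase Adsl, the adenylate kinase Ak1, and the creatine kinases Ckm, Ckb and Ckmt2. All 10 were present in the table. RNA-sequencing was performed on whole tibialis anterior (TA) muscle of male C57BL/6 mice aged 8 weeks, 7 days after AAV6:Yap-shRNA or a control vector had been injected into the muscle. AAV6 is an adeno-associated virus that carries a transgene into muscle fibres, and the Yap-shRNA construct was built on a CMV-eGFP backbone, so these muscles also received a green fluorescent protein cassette. There were 3 control and 3 Yap-shRNA muscles, taken from opposite legs of 3 animals, although the labels do not tie a replicate number to an animal. The sample titles describe the control as an empty vector whereas the vector field names AAV6:LacZ-shRNA, and these samples are called control here.

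A working muscle fibre uses ATP faster than its metabolism can adjust, and phosphocreatine is the nearest reserve. Creatine kinase passes phosphate between creatine and ATP, adenylate kinase rebuilds ATP from ADP and leaves AMP, and AMP deaminase removes that AMP as IMP and ammonia. Adenylosuccinate synthetase and adenylosuccinate lyase then return IMP to AMP and release fumarate, which closes the purine nucleotide cycle. Most of these steps have a muscle isoform and a broadly expressed isoform encoded by separate genes.

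The libraries held 11987167 to 12710393 counts each, and the 10 most abundant genes took 27.0 to 28.5% of a library. Knockdown was checked on Yap1, the gene that encodes Yap. Control muscles held 915, 781 and 833 reads on Yap1 against 381, 311 and 495 with Yap-shRNA, and the groups did not overlap. After scaling to CPM, the counts scaled to library size, with TMM factors that correct for library composition, this was 68.3 ± 2.96 against 31.8 ± 7.80 CPM (SD, n = 3), a log2 fold change of -1.10 (standard error 0.16, adjusted p = 0.436 by edgeR's quasi-likelihood test). The tissue carried the transcripts that define it, since all 12 skeletal fibre markers were in the table and their summed level was 160700 to 179500 CPM in control and 151000 to 178400 CPM in Yap-shRNA muscles. Summed tendon markers set 1 library of each group apart, at 639 CPM in control replicate 1 and 529 CPM in Yap-shRNA replicate 3 against 126 to 174 CPM in the other libraries. The same libraries had the highest summed fibroblast markers, 2559 and 2971 CPM against 1255 to 1506 CPM elsewhere. A whole muscle holds many cell types, and in such tissue fewer cells of a type cannot be told apart from less RNA per cell.

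Sequence upstream of the start sites was searched for CATTCC, the core bound by the TEAD proteins through which Yap contacts DNA, and for CANNTG, the E-box bound by myogenic factors. RefSeq promoters of GRCm38.p6, from 250 bases before to 50 bases after each start, were found for 9 of the 10 genes as 15 promoters. Ampd1 had none. CATTCC on either strand was in 1 of these 15 promoters and in 14.7% of all 32851 promoters, whereas CANNTG was in 13 of the 15 and in 72.3% of all. Some genes had several promoters and those of Ampd2 overlapped, so the 15 are not separate. By gene, CANNTG was found for 8 of the 9. The sequences below are the 250 bases before the start, with either motif in capitals. Ckb is shown because it held the one CATTCC match, and Ckmt2 because it held the most E-boxes of any single window, at 4. Ampd3 is shown because its groups did not overlap in the counts that follow. Each of these windows held no annotated exon. A match describes letters only.
Ckb, chr12:111672339-111672588, minus strand: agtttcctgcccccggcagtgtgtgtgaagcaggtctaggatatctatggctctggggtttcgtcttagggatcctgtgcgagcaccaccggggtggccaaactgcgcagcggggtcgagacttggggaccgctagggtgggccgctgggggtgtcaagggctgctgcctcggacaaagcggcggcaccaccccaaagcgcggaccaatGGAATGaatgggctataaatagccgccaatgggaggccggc
Ckmt2, chr13:91876886-91877135, minus strand: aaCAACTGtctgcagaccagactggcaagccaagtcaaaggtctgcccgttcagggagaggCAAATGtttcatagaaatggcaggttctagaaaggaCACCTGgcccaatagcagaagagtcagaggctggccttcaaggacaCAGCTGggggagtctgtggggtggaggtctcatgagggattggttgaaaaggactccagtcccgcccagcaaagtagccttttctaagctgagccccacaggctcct
Ampd3, chr7:110772354-110772603, plus strand: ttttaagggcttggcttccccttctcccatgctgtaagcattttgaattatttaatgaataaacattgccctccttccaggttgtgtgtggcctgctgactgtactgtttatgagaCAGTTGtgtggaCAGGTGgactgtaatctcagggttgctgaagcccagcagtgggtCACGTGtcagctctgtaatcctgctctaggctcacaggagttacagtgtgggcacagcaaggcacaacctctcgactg
The Ckb match reads GGAATG on the gene's strand, which is CATTCC on the other, and starts 41 bases before the start site. The Ampd3 window is 1 of 3 that RefSeq lists for the gene, and its 3 E-boxes start 134, 122 and 78 bases before the start. The other 2 Ampd3 windows held 1 and 0 E-boxes in the same stretch.

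The muscle isoforms were far above their broadly expressed relatives in every library. Levels between genes are given as CPM per kilobase of exon, the mean over the 6 libraries with its SD. Ckm, the cytosolic creatine kinase of muscle, stood at 6712 ± 417 CPM per kilobase (n = 6) and ranked 13 among 13204 genes with a known length. Ckmt2, the creatine kinase of muscle mitochondria, followed at 1197 ± 193 (n = 6) and ranked 37. Ak1, the cytosolic adenylate kinase, stood at 722 ± 70.8 CPM per kilobase (n = 6), and Adssl1, the muscle adenylosuccinate synthetase, at 603 ± 53.9 (n = 6). The ranges of Ak1 and Adssl1 over the libraries overlapped, so their order was within the spread. Ampd1, the muscle AMP deaminase, stood at 281 ± 34.8 CPM per kilobase (n = 6) and Adsl, the lyase with a single gene, at 31.2 ± 2.63 (n = 6), and neither range met that of a neighbour in the order.

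A gap of 10.3-fold separated Adsl from the 4 lowest genes. Adss, the broadly expressed adenylosuccinate synthetase, stood at 3.02 ± 0.211 CPM per kilobase (n = 6) and Ckb, the creatine kinase best known from brain, at 2.43 ± 0.575 (n = 6). Ampd2, the AMP deaminase of non-muscle tissues, stood at 1.74 ± 0.270 and Ampd3, the form first known from red blood cells, at 1.69 ± 0.338 CPM per kilobase (n = 6 each). Each of these 4 overlapped its neighbour in range, and Ampd3 moved above Ampd2 when the longest transcript replaced the joined exons as the length. Within families the level per kilobase of Ampd1 was 161 times that of Ampd2 and 167 times that of Ampd3. Adssl1 was 200 times Adss, and Ckm was 2770 times Ckb and 5.61 times Ckmt2.

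**Figure D1:**
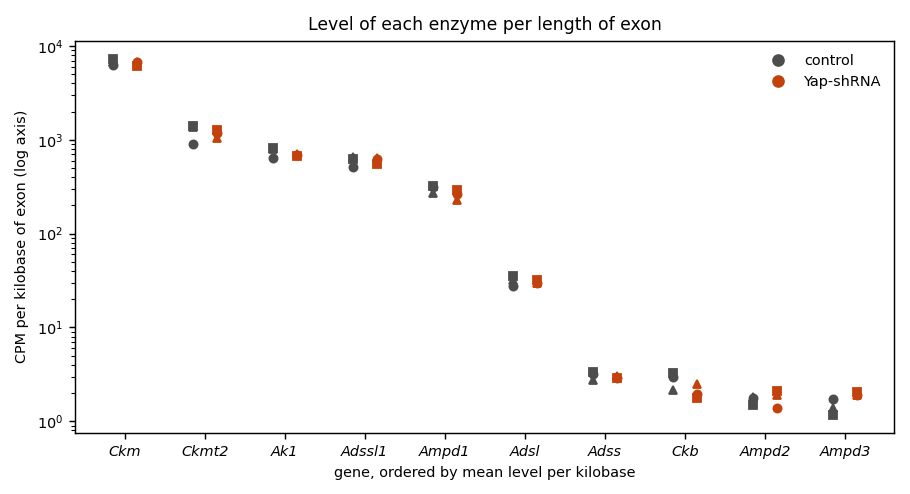
Level of the 10 enzyme genes in CPM per kilobase of exon on a log axis, with 1 point for each of the 3 control and 3 Yap-shRNA libraries. Ckm, Ckmt2, Ak1, Adssl1 and Ampd1 sit between 229 and 7354 CPM per kilobase, Adsl near 31.2, and the other 4 genes below 3.34.

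With levels this unequal, reads assigned to the wrong relative could matter, so the transcripts of each family were compared. The longest run of identical bases was 34 between Ampd1 and Ampd2, 20 between Ampd2 and Ampd3 and between Ckm and Ckb, and 15 to 17 for the other family pairs. The read length was not given in the sources used here, so words of 100 and of 50 bases were compared. Of the 100-base words in the exons of each gene, 6.09% in Ampd2, 3.11% in Ampd3, 5.71% in Ckm and 4.54% in Ckb were also found in another gene, and 0% in the other 6. For Ckb the other gene was Gm12892. For Ampd2, Ampd3 and Ckm, at 100 bases, they were genes lying on the opposite strand of the same locus, where Gm12500 covered 8.3% of the Ampd2 exons, Rnf141 covered 3.5% of the Ampd3 exons and A930016O22Rik covered 15.5% of the Ckm exons. At 50 bases the shared part was 7.19% in Ampd2, 10.8% in Ckm, 9.98% in Ckb and 2.51% in Ckmt2, each shared with 1 to 3 genes. It was 5.28% in Ampd3 and 0.882% in Adsl, spread over 537 and 184 other genes, and 0% in the other 4. No strand setting was stated either, so reads of overlapping genes on opposite strands cannot be told apart. Rnf141 held 266, 213 and 261 reads in control and 270, 227 and 227 in Yap-shRNA muscles, with the groups overlapping.

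None of the 10 enzymes passed the test between Yap-shRNA and control muscle. With edgeR's quasi-likelihood test and an adjusted p threshold of 0.05, 0 of the 10 were called, beside 0 of all 13226 genes (0%). At an unadjusted p under 0.05 there was 1 enzyme, Ampd3, beside 232 of all genes (1.75%). DESeq2 and the likelihood ratio test each called 5 genes and limma-voom called 0, and no enzyme was among them. The median log2 fold change of the 10 enzymes was -0.06 and that of all genes was -0.0029, and the median absolute log2 fold change was 0.08 against 0.09. By point estimate 3 enzymes were higher and 7 lower in Yap-shRNA muscles. The 12 skeletal fibre markers were 2 higher and 10 lower by value, with a median log2 fold change of -0.08 and none called, and their part in the enzymes' values was not tested. The 95% intervals stayed within a 1.5-fold difference in either direction for 8 of the 10 enzymes and within 2-fold for all 10. Only Ampd3 had all 3 Yap-shRNA libraries above all 3 control libraries, as had 2.56% of all genes, and no enzyme had all 3 below, as had 2.71% of all genes.

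**Figure D2:**
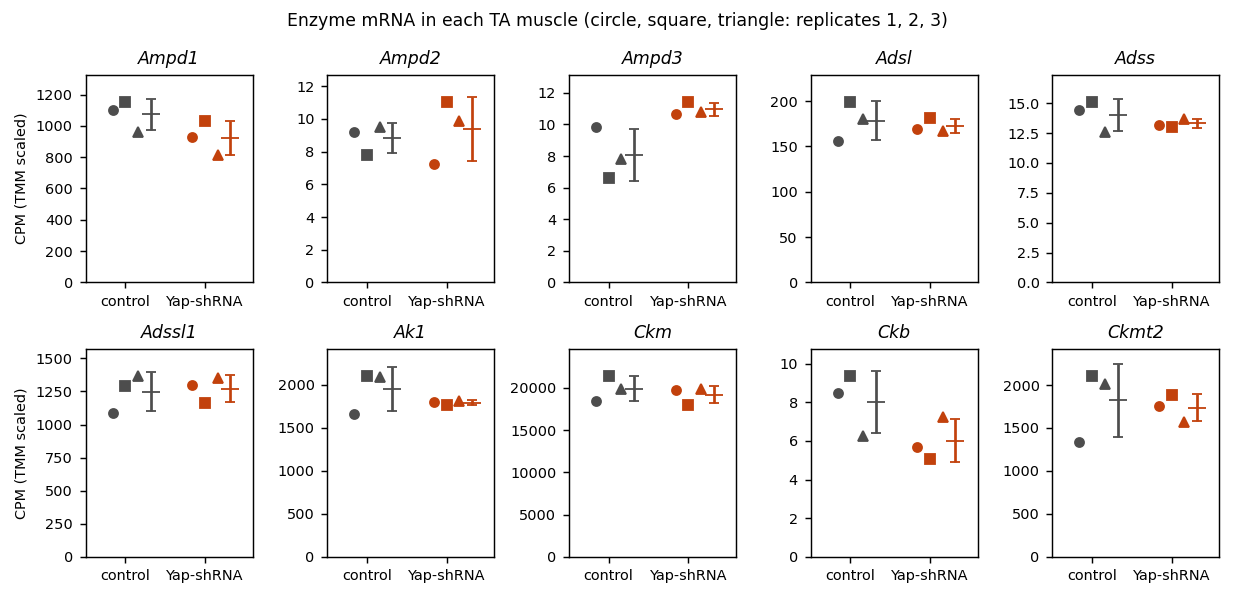
TMM-scaled CPM of each enzyme gene in the 3 control and 3 Yap-shRNA muscles, with the mean and SD (n = 3) beside the points and each axis starting at 0. The groups overlap for every gene but Ampd3, where the Yap-shRNA muscles lie between 10.7 and 11.4 CPM and the control muscles between 6.61 and 9.81.

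Among the AMP deaminases the dominant gene, Ampd1, was lower by value in Yap-shRNA muscles and the minor gene Ampd3 was higher. Ampd1 lies on the plus strand of chromosome 3 of GRCm38 (positions 103074014 to 103099720), and its principal transcript has 16 exons for 745 residues. It stood at 1101, 1154 and 962 CPM in control muscles and at 929, 1030 and 814 CPM in Yap-shRNA muscles. Of the Yap-shRNA muscles 2 were below every control, and the other lay within their range. The means were 1073 ± 99.3 and 924 ± 108 CPM (SD, n = 3), or 86.2% of control, with a log2 fold change of -0.21 (standard error 0.12, 95% interval -0.48 to 0.05, adjusted p = 1.00 by edgeR's quasi-likelihood test). A decrease to 0.718 of control or an increase to 1.03 times control therefore lay within the interval.

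Ampd3, on the plus strand of chromosome 7 (110768206 to 110812405), encodes 766 residues. It held 126, 79 and 95 reads in control muscles against 127, 149 and 135 with Yap-shRNA, which scaled to 9.81, 6.61 and 7.80 against 10.7, 11.4 and 10.8 CPM. Every Yap-shRNA muscle was above every control, with the nearest values 9.81 and 10.7 CPM. The means were 8.07 ± 1.62 and 11.0 ± 0.426 CPM (SD, n = 3), a log2 fold change of 0.44 (standard error 0.17, 95% interval 0.06 to 0.82), or 1.36-fold with an interval of 1.04 to 1.77. The difference did not pass the adjusted threshold (adjusted p = 1.00 by edgeR's quasi-likelihood test, unadjusted p = 0.0293). A two-sided permutation test over all splits of the 6 muscles into 3 and 3 gave p = 0.1, the smallest that these splits allow. It ignored that the muscles came from opposite legs of the same animals, and swaps within animals would allow no p that small. Ampd3 varied by 20.0% over the 6 libraries, where counting error alone gives 9.19%. The size of its log2 fold change stood at the 94.5th percentile of all genes.

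Several cell type sums are given beside Ampd3 because the gene is also made outside the fibre. Macrophage markers summed to 96.5 to 234 CPM in control and 167 to 218 CPM in Yap-shRNA muscles, and all 10 were higher by value with a median log2 fold change of 0.29 and none called. Red blood cell markers summed to 120 to 203 CPM against 101 to 243 CPM. A list of 12 denervation and atrophy genes summed to 496 to 528 CPM in control and 546 to 606 CPM in Yap-shRNA muscles. Most of that sum came from the ubiquitin ligase genes Fbxo32 and Trim63, which overlapped between groups on their own, as did 11 of the 12 genes. The part of these cell types and genes in the Ampd3 difference was not tested.

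Ampd2, on the minus strand of chromosome 3 (108074062 to 108086651), encodes 798 residues. It stood at 9.18, 7.78 and 9.52 CPM in control and at 7.21, 11.1 and 9.89 CPM in Yap-shRNA muscles. The lowest and the highest values were both in the Yap-shRNA group, and the log2 fold change was 0.09 (standard error 0.19, 95% interval -0.33 to 0.51).

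The enzymes that return IMP to AMP did not differ beyond the spread between muscles. Adssl1, on the plus strand of chromosome 12 (112620045 to 112641360; 457 residues), stood at 1084, 1293 and 1367 CPM in control and at 1300, 1162 and 1355 CPM in Yap-shRNA muscles. The Yap-shRNA values lay within the control range, with a log2 fold change of 0.03 (standard error 0.11, 95% interval -0.23 to 0.29). Adss, on the minus strand of chromosome 1 (177762962 to 177796511; 456 residues), stood at 14.4, 15.1 and 12.6 CPM in control and at 13.2, 13.1 and 13.7 CPM in Yap-shRNA muscles. These too lay within the control range, and Adss varied by 6.98% over the libraries, below the 7.68% that counting error alone gives. Its log2 fold change was -0.08 (standard error 0.12, 95% interval -0.36 to 0.21).

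Adsl, the step shared by this cycle and by purine synthesis, lies on the plus strand of chromosome 15 (80948490 to 80970946) and encodes 484 residues. It stood at 156, 199 and 180 CPM in control and at 169, 181 and 167 CPM in Yap-shRNA muscles, all within the control range. The log2 fold change was -0.05 (standard error 0.11, 95% interval -0.29 to 0.20).

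Ak1, on the plus strand of chromosome 2 (32621758 to 32635058), encodes the smallest of these proteins at 194 residues. It stood at 1658, 2104 and 2092 CPM in control and at 1800, 1762 and 1815 CPM in Yap-shRNA muscles. The Yap-shRNA muscles lay close together inside the wider control range, at 1792 ± 27.6 against 1951 ± 254 CPM (SD, n = 3). The log2 fold change was -0.12 (standard error 0.11, 95% interval -0.37 to 0.13, adjusted p = 1.00 by edgeR's quasi-likelihood test).

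The creatine kinases were led by Ckm, which took 1.86 to 2.08% of each library. It lies on the plus strand of chromosome 7 (19404776 to 19422841) and encodes 381 residues. It stood at 18414, 21423 and 19868 CPM in control and at 19749, 18012 and 19842 CPM in Yap-shRNA muscles. Of the Yap-shRNA muscles 1 lay below the control range and 2 within it. The means were 19902 ± 1505 and 19201 ± 1031 CPM (SD, n = 3), with a log2 fold change of -0.05 (standard error 0.10, 95% interval -0.27 to 0.16). This was the narrowest interval of the 10 enzymes, from 0.831 to 1.12 times control, and counting error was only 0.203% against a spread of 6.22%.

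Ckmt2, on the minus strand of chromosome 13 (91853387 to 91876885; 419 residues), stood at 1337, 2105 and 2017 CPM in control and at 1761, 1879 and 1572 CPM in Yap-shRNA muscles. The Yap-shRNA values lay within the control range, and the log2 fold change was -0.07 (standard error 0.17, 95% interval -0.44 to 0.31). The lowest value of each group was in the library with the highest summed tendon and fibroblast markers, control replicate 1 and Yap-shRNA replicate 3. Adsl had the same pattern. Ckm, Adssl1 and Ak1 were also lowest among controls in replicate 1, but among Yap-shRNA muscles they were highest in replicate 3. The part of connective tissue in the spread of these genes was not tested. Without control replicate 1 the log2 fold change of Ckmt2 was -0.25, and without control replicate 2, control replicate 3 or Yap-shRNA replicate 3 it was 0.05, 0.01 and 0.00.

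Ckb, on the minus strand of chromosome 12 (111669361 to 111672338; 381 residues), held few reads, 109, 112 and 76 in control and 68, 66 and 91 in Yap-shRNA muscles. These scaled to 8.48, 9.36 and 6.24 CPM against 5.70, 5.07 and 7.26 CPM. Of the Yap-shRNA muscles 2 were below every control, and the other was above the lowest control. The means were 8.03 ± 1.61 and 6.01 ± 1.13 CPM (SD, n = 3), or 74.9% of control, with a log2 fold change of -0.42 (standard error 0.21, 95% interval -0.89 to 0.05, adjusted p = 1.00 by edgeR's quasi-likelihood test). The interval ran from 0.540 to 1.04 times control and was the widest of the 10 enzymes on the log2 scale. The spread over libraries was 23.7% where counting error gives 10.7%. The 4 smooth muscle markers summed to 146, 222 and 123 CPM in control and to 130, 85.7 and 159 CPM in Yap-shRNA muscles, with the groups overlapping. All 4 were lower by value with a median log2 fold change of -0.40 and none called. This was the lowest median of the cell type lists, and the others ran from -0.08 for skeletal fibre to 1.04 for adipocyte markers. The part of other cell types in the Ckb value was not tested.

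**Figure D3:**
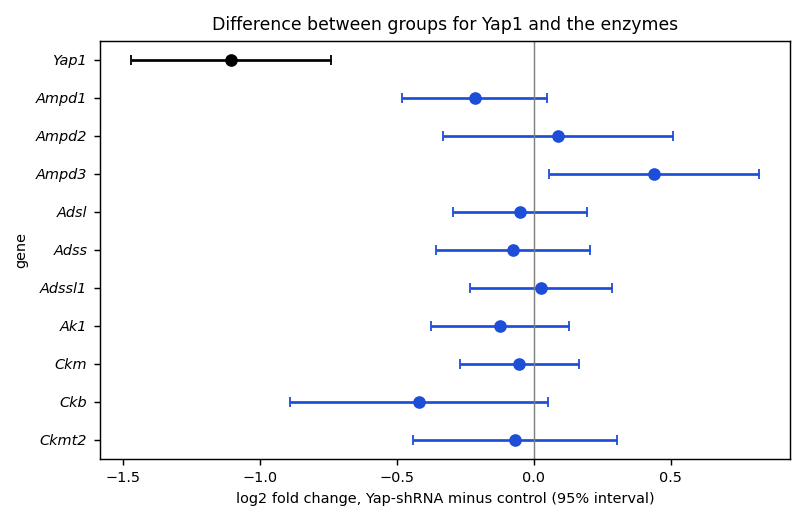
Log2 fold change of Yap-shRNA against control muscles for Yap1 and the 10 enzyme genes, with 95% intervals from edgeR's quasi-likelihood fit (n = 3 per group). The interval of Yap1 runs from -1.47 to -0.74, that of Ampd3 from 0.06 to 0.82, and those of the other 9 enzymes span 0.

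Ratios of counts between 2 enzymes of the same library do not depend on how libraries are scaled, and 6 such ratios were taken without a test. They are not ratios of level, since exon lengths differ. The ratio of Ampd1 to Ampd3 was 112, 175 and 123 in control muscles against 87.2, 90.0 and 75.6 with Yap-shRNA. Every Yap-shRNA value was below every control, at a mean of 84.3 ± 7.63 against 137 ± 33.3 (SD, n = 3), or 0.616 of control. Ampd3 was already apart on its own and Ampd1 overlapped, so this is not a result separate from that of Ampd3. How often ratios of other gene pairs separate the groups in this way was not computed. Ckm to Ckb was 2170, 2288 and 3186 in control and 3462, 3554 and 2734 in Yap-shRNA muscles, with the groups overlapping. Ckm to Ckmt2 was 13.8, 10.2 and 9.85 against 11.2, 9.59 and 12.6, and the mean in Yap-shRNA muscles was 0.989 of control. The muscle form over the broad form of adenylosuccinate synthetase, Adssl1 to Adss, was 75.3, 85.4 and 109 against 98.7, 89.1 and 98.8, also overlapping. Ampd1 to Adssl1 and Adsl to Adssl1 overlapped too, at 0.843 and 0.953 of the control mean.

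**Figure D4:**
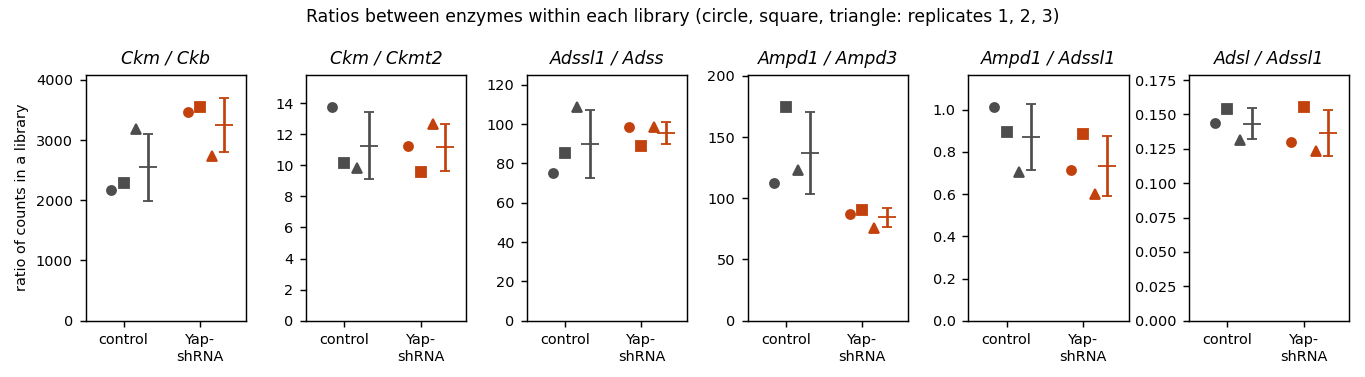
Ratio of counts between pairs of enzyme genes within each of the 3 control and 3 Yap-shRNA libraries, with the mean and SD (n = 3) beside the points. Only the Ampd1 to Ampd3 ratio separates the groups, from 112 to 175 in control and from 75.6 to 90.0 in Yap-shRNA muscles. The level of Ampd3 alone also separates them.

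Among themselves the enzymes varied in different ways over the 6 libraries. Of the 45 pairs, 4 had a Pearson correlation of log2 CPM above 0.8 and 1 was below -0.8, with a median of 0.01 (n = 6 libraries, which share scaling and group). Adsl and Ckmt2 were the closest pair (r = 0.928, Spearman's rho = 0.943, n = 6). Next came Adss and Ckb, both at low levels (r = 0.88, rho = 0.829, n = 6), and then Ak1 and Ckmt2 at r = 0.841. Ampd3 and Ak1 were the most opposed (r = -0.845, rho = -0.600, n = 6). These values are descriptions, and 6 libraries set no firm order among them.

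Genes next to these enzymes in metabolism also showed no called change. Lists of other adenylate kinases, creatine supply, breakdown and salvage of AMP, IMP and adenosine, purine synthesis, nucleotide transport, AMP-activated kinase, nucleoside diphosphate kinases and denervation response had 0 genes past the adjusted threshold by edgeR's quasi-likelihood test and 1 at an unadjusted p under 0.05, and none of their genes was among the calls of DESeq2 or the likelihood ratio test. Other adenylate kinases were represented by 4 of 8 genes, 2 higher and 2 lower by value. Ak3, of the mitochondrial matrix, had the most reads of these with a log2 fold change of -0.09, and the extremes were Ak4 at 0.35 and Ak6 at -0.10. For creatine supply 3 of 4 genes were in the table. The creatine transporter Slc6a8 stood at 142 ± 6.05 in control and 147 ± 3.03 CPM in Yap-shRNA muscles (SD, n = 3), and the creatine-making enzymes Gatm and Gamt had log2 fold changes of 0.22 and -0.26.

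For breakdown and salvage 15 of 18 genes were in the table, 10 higher and 5 lower by value with a median log2 fold change of 0.04. Adenosine kinase, Adk, had the most reads and a log2 fold change of -0.05, and the range ran from -0.52 for the AMP nucleotidase Nt5c1a to 0.28 for the ecto-nucleotidase Nt5e. Pnp, which cleaves inosine and was chosen after its values were seen, held 44, 54 and 47 reads in control and 54, 61 and 60 in Yap-shRNA muscles. Its reads met at 54, and its groups were apart only after scaling to library size. The 13 purine synthesis genes were 6 higher and 7 lower, with Gmpr at -0.10, Prps2 at 0.42 and Guk1 at -0.11. Impdh2, at the branch to GMP and also chosen after its values were seen, held 88, 83 and 77 reads in control and 83, 102 and 91 in Yap-shRNA muscles. These reads overlapped, and its groups were apart only after TMM scaling. Of all genes 2.56% were apart in that direction after this scaling.

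Of the transport list 12 of 13 genes were in the table, 4 higher and 8 lower by value. Slc25a4, the ADP/ATP carrier of muscle mitochondria, stood at 5668 ± 867 in control and 5299 ± 179 CPM in Yap-shRNA muscles (SD, n = 3), and the extremes were the ATP-Mg carriers Slc25a24 at 0.64 and Slc25a25 at -0.38. The 11 genes of AMP-activated kinase and its activators were 4 higher and 7 lower. Prkab2, its beta subunit in muscle, had a log2 fold change of -0.07, Prkag3, its muscle gamma subunit, -0.26, and the upstream kinase Camkk2 0.31. Nucleoside diphosphate kinases were represented by 5 of 6 genes, with Nme1 at 0.04, Nme7 at 0.07 and Nme4 at -0.22.

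The 12 denervation and atrophy genes had the highest median of these lists, a log2 fold change of 0.16 against -0.0029 over all genes, with 10 higher and 2 lower by value. Fbxo32, a ubiquitin ligase of atrophy, stood at 203 ± 18.7 and 229 ± 40.4 CPM (SD, n = 3), a log2 fold change of 0.18. Runx1 held 78, 18 and 15 reads in control and 59, 59 and 113 in Yap-shRNA muscles. The groups overlapped for Runx1 at a log2 fold change of 1.06, and Myog was at -0.33. Gadd45a was the one gene of the list at an unadjusted p under 0.05, with a log2 fold change of 0.52 (standard error 0.18), and Hdac4 the one without overlap between groups, at 0.14 (standard error 0.09). Both were chosen after their values were seen.

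**Figure D5:**
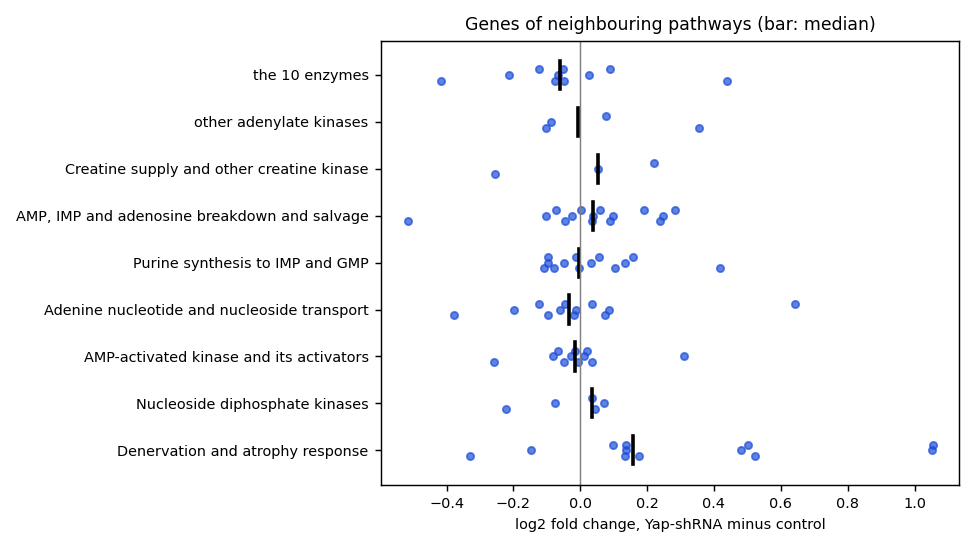
Log2 fold change of Yap-shRNA against control muscles for the 10 enzymes and for each gene of the 8 lists of neighbouring pathways, with a bar at each median. The medians lie between -0.06 for the 10 enzymes and 0.16 for the denervation list, and no gene shown passed the adjusted threshold.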

How the data were processed

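Polyadenylated RNA of whole TA muscles was sequenced from TruSeq libraries. The authors deposited raw read counts per gene, without normalisation, for 3 control and 3 Yap-shRNA muscles. Per the labels the genome build was GRCm38 and bcl2fastq 2.20.0.422 was used. The aligner, the counter and the strand setting were not given in the sources used here. The deposited table already left out low genes, since no gene had fewer than 60 reads in all.

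TMM-scaled counts entered the quasi-likelihood test of edgeR 4.0.16 in R 4.3.3, with group alone in the model and Benjamini-Hochberg adjustment over 13226 genes and a threshold of 0.05. Standard errors were the log2 fold change over the square root of F, and 95% intervals used the t distribution on the fit's degrees of freedom. The p-values measure the spread between these muscles. On simulated counts for this comparison over 13226 genes the test recovered 120 of 200 genes changed 2-fold and called 13 unchanged genes. With 200 changed genes the adjusted threshold is easier to pass than in the real fit, which called 0. Yap1, at a log2 fold change of -1.10, was not called there. The simulation therefore does not give the share of 2-fold changes that would be called in these data. Within groups, chi-square per degree of freedom between libraries was 7.62 to 21.4, so no library was a repeat. Gene positions and exon lengths came from GENCODE M21 on GRCm38, promoters from RefSeq on GRCm38.p6. The members and lists were chosen with earlier results of these data known. Named from each list were the gene with the most reads and those with the highest and lowest log2 fold change. DESeq2 1.42.0, the likelihood ratio test, limma-voom 3.58.1, other scalings, filters and thresholds, a replicate block, left-out muscles and another length were tried. No protein sequences were analysed here.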

Additional observations from a re-analysis of the deposited data

How the results depend on the processing

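No enzyme passed the adjusted threshold under any alternative run, and 142 of the 150 combinations of enzyme and alternative kept the direction of the log2 fold change. The other 8 turned it, all by leaving out 1 muscle. The alternative without a count filter was the main fit itself, since the deposited table was already filtered. Its combinations are among those that kept the direction, and they could not have turned. The leave-one-out ranges were -0.0644 to 0.0979 for Adssl1 (turned without control replicate 1 or Yap-shRNA replicate 3), -0.136 to 0.0378 for Adsl and -0.105 to 0.0045 for Ckm (both without control replicate 2). They were -0.247 to 0.0508 for Ckmt2 (without control replicate 2, control replicate 3 or Yap-shRNA replicate 3) and -0.0448 to 0.247 for Ampd2 (without Yap-shRNA replicate 2). Of the enzymes that kept their direction, Ampd3 ranged from 0.31 to 0.60, Ckb from -0.58 to -0.29, Ampd1 from -0.30 to -0.13, Ak1 from -0.23 (without control replicate 1, unadjusted p = 0.0185 and adjusted p = 0.659 by edgeR) to -0.07 and Adss from -0.15 to -0.02 when a muscle was left out. For Ampd3 and Ckb the adjusted p was 0.520 to 1 and 0.751 to 1 over all alternatives. Over all genes the count called was 5 by DESeq2 (Hspb7, Rrad, Ccl2, Yap1 and Mir155hg) and 5 by the likelihood ratio test (Rrad, Ccl2, Yap1, Actc1 and Mir155hg), and 0 to 1 when a muscle was left out, where Mir155hg was called without Yap-shRNA replicate 3. With the longest transcript as length the level per kilobase was 7130 for Ckm, 47.3 for Adsl, 2.32 for Ampd3 and 2.12 for Ampd2.

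With a replicate block, 0 genes and 0 enzymes were called, and the log2 fold change was 0.45 for Ampd3, -0.22 for Ampd1 and -0.41 for Ckb. Deviations of muscles with the same number correlated at -0.065, 0.196 and -0.315. These values cannot show whether equal numbers mark the same animal, since other differences between muscles also enter them. No label ties a number to an animal, so the numbers were treated as names only. The block changed no call. The depth limits Ampd2, Ampd3 and Ckb most, where counting error alone gives 9.19 to 10.7%.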

Other observations

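Among the skeletal fibre markers Tnnc2, the fast troponin C gene, was listed at 6.54 CPM in control and 5.46 CPM in Yap-shRNA muscles, whereas its partner in the fast troponin complex, Tnni2, stood at 9579 and 8597 CPM. Overlap of Tnnc2 exons with other genes was not checked and the reason for its low count was not tested. The value is therefore not read as the level of its mRNA. Tnnc2 did not differ between groups beyond the spread (log2 fold change -0.26, standard error 0.27). It was chosen after its values were seen. The 6 slow fibre genes were 3 higher and 3 lower by value, with a median log2 fold change of -0.04. Among them Myl2, chosen after its values were seen, held 26, 33 and 15 reads in control and 39, 50 and 50 with Yap-shRNA. Its log2 fold change was 0.88 (standard error 0.29), which did not pass the adjusted threshold by edgeR's quasi-likelihood test (adjusted p = 1.00). Of the other slow fibre genes, Atp2a2 had a log2 fold change of 0.14, Myh7 of 0.09, Tnnc1 of -0.17, Tnnt1 of -0.26 and Tnni1 of -0.44. Adipocyte markers had the highest median log2 fold change of the cell type lists, at 1.04, with 4 of 5 higher by value and none called. Those values came from Yap-shRNA replicate 3. Adipoq, for example, held 61, 24 and 35 reads in control and 19, 41 and 205 in Yap-shRNA muscles, and Cfd held 180, 96 and 153 against 128, 122 and 628. For Adipoq, Plin1, Lep and Cfd, Yap-shRNA replicates 1 and 2 held no more reads than the highest control. Fabp4, the adipocyte marker with the most reads, had a log2 fold change of -0.10, and the summed markers overlapped, at 239 to 269 CPM in control and 233 to 287 CPM in Yap-shRNA muscles.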
